A study of Mus musculus with 12 samples.

Results

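The 8 genes described here were 7 ADAMTS proteases (*Adamts1*, *Adamts2*, *Adamts4*, *Adamts5*, *Adamts9*, *Adamts10*, *Adamts12*) and *Vcan*, which encodes versican. They were taken by name and were found in the annotation as 8 of the 54119 genes with summed counts, and all 8 passed the filter on low counts that left 19150 genes. RNA came from cerebral vessels isolated from the forebrain of C57BL6 mice aged 2 to 3 months that had received PBS or had received LPS, the endotoxin of Gram-negative bacteria, at 10 mg/kg into the peritoneum 15 min, 30 min, or 4 h earlier. No group carried a genetic alteration. Each of the 4 groups had 3 libraries, and each library pooled the vessels of 1 male and 1 female mouse, so the spread within a group is that between pools. Forebrain freed of meninges was homogenized and spun in dextran, and the fraction held back by a mesh was used without sorting of cells. The RNA is thus that of mixed cells, and how completely each cell type of the vessel wall was kept is not known.

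ADAMTS enzymes are secreted zinc proteases whose thrombospondin repeats hold them in the extracellular matrix. ADAMTS1, ADAMTS4, ADAMTS5, and ADAMTS9 can cut the core protein of versican, a large chondroitin sulfate proteoglycan that binds hyaluronan, and cleaved or intact versican is a common part of the provisional matrix of inflamed vessels. ADAMTS2 removes the amino propeptide of fibrillar procollagens, ADAMTS10 binds fibrillin microfibrils, and ADAMTS12 has been tied to cartilage oligomeric matrix protein.

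Total depth was 18.3 to 25.9 M fragments per library. All 8 endothelial markers were detected in every group. Levels within a gene are given as CPM, counts brought to a common library total, scaled with TMM, a factor that corrects for the make-up of each library, and levels between genes as TPM, which also correct for transcript length. At 4 h the scaling mattered: with library size alone the median log2 fold change of all genes against PBS was lower by 0.70, and 18.2% rather than 57.96% of called genes were higher.

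Among the versican-cleaving proteases, *Adamts1* was called higher at every time and *Adamts4* and *Adamts9* at 4 h, while *Adamts5* did not pass the test at any time. *Adamts9* lay a little above PBS in every early LPS library as well, by less than the fold that the test required. A gene was called when edgeR gave a Benjamini-Hochberg adjusted p below 0.05 for a change beyond 0.58 on the log2 scale. At 15 min 1 of the 8 genes was called higher, against 3.35% of all genes tested. At 30 min 1 was called higher, against 3.80% of all genes, and 1 lower, against 0.815%. At 4 h 4 were called higher, against 19.1%, and 2 lower, against 13.9%. The libraries of the LPS group did not overlap those of PBS for 5 of the 8 genes at 15 min, 5 at 30 min, and 8 at 4 h, where 49.3%, 46.7%, and 70.9% of all genes tested did not overlap.

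**Figure D1:**
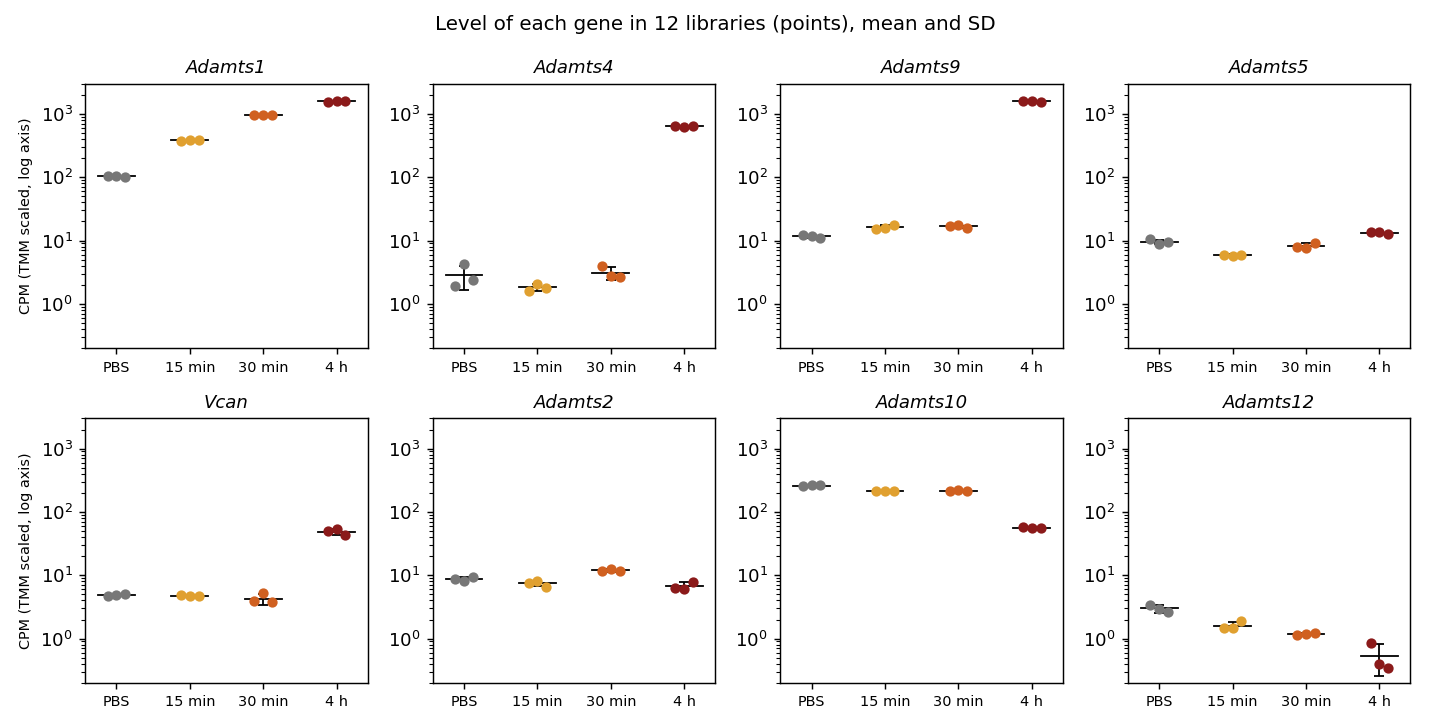
Level of each of the 8 genes in the 12 libraries, as TMM-scaled CPM on a log axis that is the same in every panel, with the 3 libraries of a group as points and the mean and SD as bars. *Adamts1* stands higher at each later time, *Adamts4*, *Adamts9*, and *Vcan* stand far above all other groups at 4 h, *Adamts9* also lies slightly above PBS at 15 and 30 min, and *Adamts10* and *Adamts12* are lowest at 4 h.

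*Adamts1* (chr16:85793827-85803113, minus strand, GRCm38) encodes a protease that cuts aggrecan and versican and that also binds vascular endothelial growth factor. Its PBS libraries held 106, 106, and 102 CPM, those at 15 min 378, 386, and 386, those at 30 min 969, 966, and 953, and those at 4 h 1560, 1575, and 1582. The 4 groups did not overlap, and each later time was above the one before. The log2 fold change against PBS was 1.87 ± 0.024 (SE, n = 3) at 15 min, 3.20 ± 0.024 at 30 min, and 3.91 ± 0.025 at 4 h, with edgeR adjusted p = 1.32e-22, 8.33e-29, and 6.65e-31. The step from 15 to 30 min was 1.33 ± 0.022 on the log2 scale (edgeR adjusted p = 4.33e-19), where 2.77% of all genes tested were called higher. The step from 30 min to 4 h was 0.71 ± 0.021 (edgeR adjusted p = 2.65e-06) but 0.17 with library size alone, at adjusted p = 1, and in TPM the means were 272 ± 6.46 (SD, n = 3) at 30 min and 289 ± 3.599 at 4 h. *Adamts1* stands in a table of the study for an ontology term on the negative regulation of blood vessel morphogenesis. That table is limited to genes significant in these libraries, so the place of *Adamts1* there is no independent evidence of its rise.

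The promoter of *Adamts1* is shown because this was the one gene of the 8 called higher at 15 min in the test beyond 0.58. RefSeq promoters, from 250 bases before to 50 bases after the start, were found for 5 of the 8 genes (*Adamts1*, *Adamts2*, *Adamts9*, *Adamts12*, *Vcan*), and those of 2 genes called at 4 h are printed beside it for comparison. Capitals mark letters matching the GC box GGGCGG or the TATA box TATAAA on either strand. The windows, on GRCm38.p6 and all on the minus strand, are chr16:85803064-85803363 for *Adamts1*, chr6:92943485-92943784 for *Adamts9*, and chr13:89742463-89742762 for *Vcan*.
Adamts1: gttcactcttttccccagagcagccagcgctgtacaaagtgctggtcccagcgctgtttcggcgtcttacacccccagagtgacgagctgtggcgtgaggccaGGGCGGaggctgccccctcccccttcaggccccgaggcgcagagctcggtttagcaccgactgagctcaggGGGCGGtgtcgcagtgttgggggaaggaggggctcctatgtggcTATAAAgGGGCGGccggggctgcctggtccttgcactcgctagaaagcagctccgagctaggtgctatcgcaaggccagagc
Adamts9: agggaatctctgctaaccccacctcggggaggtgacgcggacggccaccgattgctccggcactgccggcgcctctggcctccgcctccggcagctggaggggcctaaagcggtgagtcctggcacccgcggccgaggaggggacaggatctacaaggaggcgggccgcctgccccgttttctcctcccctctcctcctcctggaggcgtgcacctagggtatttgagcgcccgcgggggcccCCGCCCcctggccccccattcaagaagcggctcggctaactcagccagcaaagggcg
Vcan: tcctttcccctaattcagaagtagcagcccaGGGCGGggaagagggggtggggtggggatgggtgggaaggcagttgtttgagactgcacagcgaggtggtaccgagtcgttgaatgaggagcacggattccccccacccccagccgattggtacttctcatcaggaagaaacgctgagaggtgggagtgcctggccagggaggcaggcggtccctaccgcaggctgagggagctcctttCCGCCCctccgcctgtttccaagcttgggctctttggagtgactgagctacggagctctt

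Of these 3 windows only that of *Adamts1* held TATAAA, at -32 to -27 from the start, and 13.6% of 32851 promoters of the same length held it. The window of *Adamts1* had 3 GC boxes, that of *Adamts9* 1, and that of *Vcan* 2, and 35.7% of all promoters had at least 1. Neither the AP-1 letters TGANTCA, present in 7.81% of all promoters, nor TGACGTCA, the cAMP response element, present in 1.79%, nor CACGTG, the E-box, present in 7.15%, nor an NF-kB or CArG box match, present in 4.51% and 1.63%, stood in any of the 5 windows. A match of letters is a description of the window and does not show that a factor binds it.

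*Adamts4* (chr1:171250421-171260637, plus strand), known as aggrecanase-1, had few counts before 4 h. Its PBS libraries held 1.95, 4.18, and 2.37 CPM, those at 15 min 1.59, 2.08, and 1.77, those at 30 min 3.94, 2.71, and 2.64, and those at 4 h 639, 613, and 646. The first 3 groups held 47 to 124 fragments per library, the PBS libraries overlapped both early LPS groups, and all 3 libraries at 4 h, with 8286 to 9458 fragments, lay far above them. The log2 fold change at 4 h was 7.78 ± 0.092 (SE, n = 3), a 219-fold rise (edgeR adjusted p = 3.07e-26), and against 30 min it was 7.67 ± 0.094 (adjusted p = 8.99e-26). In the step from 30 min to 4 h 17.0% of all genes tested were called higher and 11.9% lower. At 15 min the value was -0.68 and did not pass the test (adjusted p = 1).

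*Adamts9* (chr6:92772699-92943492, minus strand), a protease with many thrombospondin repeats that is needed for normal vascular and cardiac development, was also called higher at 4 h. Its PBS libraries held 12.3, 11.9, and 10.96 CPM, those at 15 min 15.3, 16.0, and 17.7, those at 30 min 16.9, 17.9, and 15.9, and those at 4 h 1592, 1579, and 1562. The libraries at 15 and 30 min all lay above PBS, by 0.47 ± 0.058 and 0.52 ± 0.059 (SE) on the log2 scale, but the change did not pass the test beyond 0.58 (edgeR adjusted p = 1 in both). In the edgeR test against no change it was called at both times (adjusted p = 7.04e-07 and 2.14e-07). At 4 h the log2 fold change was 7.07 ± 0.044, or 134-fold (edgeR adjusted p = 2.16e-31). The library kit did not mark strand. *A730049H05Rik* overlaps *Adamts9* on the opposite strand and went from 19 to 20.6 fragments per library in PBS to 175 to 231 at 4 h, while *Adamts9* went from 287 to 353 up to 20647 to 23708.

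*Adamts5* (chr16:85856173-85901828, minus strand), aggrecanase-2, lies 53.1 kb from *Adamts1* on the same strand. The 3 PBS libraries held 10.4, 8.81, and 9.50 CPM, those at 15 min 5.97, 5.61, and 5.96, those at 30 min 8.02, 7.62, and 9.21, and those at 4 h 13.7, 13.7, and 12.6. The 15 min libraries lay below all PBS libraries and the 4 h libraries above them. The log2 fold changes were -0.71 ± 0.12 (SE, n = 3, edgeR adjusted p = 0.56), -0.21 ± 0.12 (adjusted p = 1), and 0.48 ± 0.12 (adjusted p = 0.93), and the last was -0.22 with library size alone. A p that misses the threshold does not show that *Adamts5* stayed level. The edgeR test against no change called it lower at 15 min and higher at 4 h (adjusted p = 4.2e-05 and 0.00084).

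**Figure D2:**
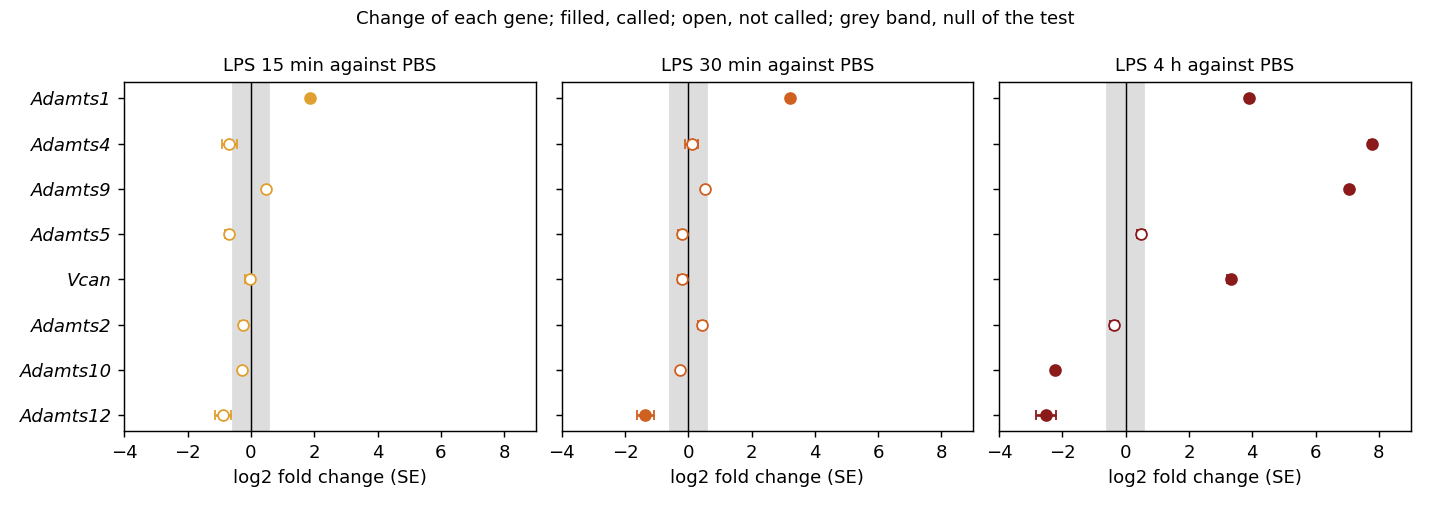
Log2 fold change of each gene against PBS for the 3 LPS times, with the SE of the fit as bars, filled points for called genes, and a grey band from -0.58 to 0.58, the null of the test. At 4 h *Adamts4*, at 7.78, and *Adamts9*, at 7.07, lie farthest to the right, and *Adamts12*, at -2.51, farthest to the left.

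*Vcan* (chr13:89655312-89742509, minus strand), the substrate, rose at 4 h as well. Its PBS libraries held 4.65, 4.96, and 5.04 CPM, those at 15 min 4.88, 4.63, and 4.68, those at 30 min 3.86, 5.25, and 3.75, and those at 4 h 49.95, 52.9, and 43.4. The first 3 groups overlapped and the 4 h libraries lay well above them. The log2 fold change at 4 h was 3.32 ± 0.12 (SE, n = 3), or 9.97-fold (edgeR adjusted p = 1.71e-16), and against 30 min it was 3.50 ± 0.12 (adjusted p = 1.28e-16). *Gm4117*, an antisense gene that overlaps *Vcan*, held 357 to 417 fragments per PBS library and 483 to 555 at 4 h, more than the 124 to 147 of *Vcan* in PBS and less than its 635 to 794 at 4 h. Reads in the overlap cannot be assigned to a strand in these libraries.

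Versican is made in forms that differ by 2 large exons for glycosaminoglycan attachment, of 2880 and 5217 bases in the annotation. V0 holds both, V1 the longer, V2 the shorter, and V3 neither. V0 held 59.3% ± 25.1 (SD, n = 3) of the *Vcan* TPM in PBS, 75.2% ± 11.98 at 15 min, 74.9% ± 17.3 at 30 min, and 50.4% ± 3.26 at 4 h. The two-sided exact permutation p against PBS was 0.4, 0.4, and 0.9, and since the smallest possible with 3 against 3 is 0.1, this test cannot show whether the shares differed. Short partial transcripts, with a mean of 4.97 fragments per library, held 36.6% ± 32.1 of the TPM in PBS. As a share of fragments V0 held 93.8% to 97.7% in the PBS libraries and 69.4% to 81.6% at 4 h, without overlap. V1 was estimated at 0 in all 3 PBS libraries and at 8.40%, 16.5%, and 27.1% of the TPM at 4 h, and V2 at 0 and at 2.67%, 4.48%, and 9.05% (two-sided exact permutation p = 0.1 for each). PBS libraries held so few *Vcan* fragments that an estimate of 0 there does not show a form to be absent.

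The procollagen and microfibril proteases moved otherwise. *Adamts10* (chr17:33524204-33553782, plus strand) fell at 4 h. In PBS it stood at 257, 264, and 262 CPM, those at 15 min 214, 214, and 215, those at 30 min 215, 223, and 215, and those at 4 h 57.4, 54.8, and 56.7. All LPS libraries lay below all PBS libraries, by 0.29 ± 0.026 (SE) on the log2 scale at 15 min and 0.26 ± 0.027 at 30 min, neither past the test (edgeR adjusted p = 1 in both). Both were called in the edgeR test against no change (adjusted p = 8.21e-09 and 3.41e-08). The log2 fold change at 4 h was -2.21 ± 0.032, or 4.64-fold lower (edgeR adjusted p = 3.07e-23).

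*Adamts12* (chr15:11064790-11349231, plus strand) had the lowest levels of the 8 genes. PBS libraries were at 3.45, 2.94, and 2.60 CPM, those at 15 min 1.49, 1.44, and 1.89, those at 30 min 1.13, 1.16, and 1.21, and those at 4 h 0.848, 0.400, and 0.342. No LPS library reached the lowest PBS library, and at 4 h a library held 5 to 11 fragments against 68 to 92 in PBS. The log2 fold change was -0.89 ± 0.26 (SE, n = 3, edgeR adjusted p = 0.463) at 15 min, -1.36 ± 0.27 (adjusted p = 0.0224) at 30 min, and -2.51 ± 0.33 (adjusted p = 6.18e-06) at 4 h. The call at 30 min was lost without any 1 of the PBS replicates 1 and 2 or the 3 libraries at 30 min (adjusted p = 0.122, 0.0539, 0.0701, 0.0602, and 0.0526), and with DESeq2 (adjusted p = 0.223). From 30 min to 4 h the value was -1.16 ± 0.36 and was not called (adjusted p = 0.0647), but without LPS 4 h replicate 1 it was -1.64 and called (adjusted p = 0.00947).

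*Adamts2* (chr11:50602084-50807573, plus strand), the procollagen N-propeptidase, was not called against PBS at any time. In the PBS libraries it was at 8.84, 8.00, and 9.50 CPM, those at 15 min 7.53, 8.20, and 6.64, those at 30 min 11.5, 12.5, and 11.7, and those at 4 h 6.40, 6.13, and 7.85. The 30 min libraries lay above and the 4 h libraries below all PBS libraries, with log2 fold changes of 0.44 ± 0.12 and -0.37 ± 0.13 (SE, n = 3, edgeR adjusted p = 1 in both). With library size alone the 4 h value was -1.07 and was called (adjusted p = 0.000312). From 30 min to 4 h it fell by 0.81 on the log2 scale (edgeR adjusted p = 0.0483), a call that a replicate block moved to adjusted p = 0.0554 and DESeq2 to 0.496. It was also lost without any 1 of the 30 min libraries or of the 4 h replicates 1 and 2 (adjusted p = 0.0503, 0.0992, 0.059, 0.113, and 0.16). A processed transcript annotated as non-coding took 39.5% ± 8.34 (SD, n = 3) of its TPM in PBS and 62.5% ± 4.89 at 30 min, and with protein-coding transcripts alone the 30 min value was -0.14 and that from 30 min to 4 h -0.45.

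Between genes, the order of the levels changed with time. Over all transcripts, mean TPM in PBS was 136 ± 2.37 (SD, n = 3) for *Adamts10*, 36.4 ± 1.33 for *Adamts1*, 2.86 ± 0.23 for *Adamts9*, 2.21 ± 0.22 for *Adamts2*, 1.39 ± 0.12 for *Adamts5*, 1.12 ± 0.41 for *Vcan*, 1.06 ± 0.44 for *Adamts4*, and 0.556 ± 0.089 for *Adamts12*. The libraries of *Adamts5*, *Vcan*, and *Adamts4* overlapped, so their order is not resolved. Over protein-coding transcripts alone the top of the order turned, with 35.1 TPM for *Adamts1* and 18.2 for *Adamts10*. At 4 h it was 289 ± 3.599 for *Adamts1*, 201 ± 4.26 for *Adamts9*, 126 ± 3.81 for *Adamts4*, 16.3 ± 0.46 for *Adamts10*, 5.10 ± 1.06 for *Vcan*, 1.03 ± 0.056 for *Adamts5*, 0.940 ± 0.12 for *Adamts2*, and 0.0524 ± 0.028 for *Adamts12*, with *Adamts5* and *Adamts2* overlapping.

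Summed over the 19 ADAMTS genes, mean TPM was 201 ± 3.80 (SD, n = 3) in the PBS group. It was 274 ± 3.54 after 15 min of LPS, 391 ± 6.58 after 30 min, and 679 ± 11.01 after 4 h. *Adamts10* made up 67.8% ± 0.65 of that sum in PBS and 2.40% ± 0.053 at 4 h. *Adamts1* made up 18.1% ± 0.35 in PBS, 69.6% ± 0.60 at 30 min, and 42.6% ± 0.30 at 4 h, when *Adamts9* held 29.5% ± 0.46 and *Adamts4* 18.5% ± 0.30. Shares sum to a constant, so a rise of one gene lowers the others.

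**Figure D3:**
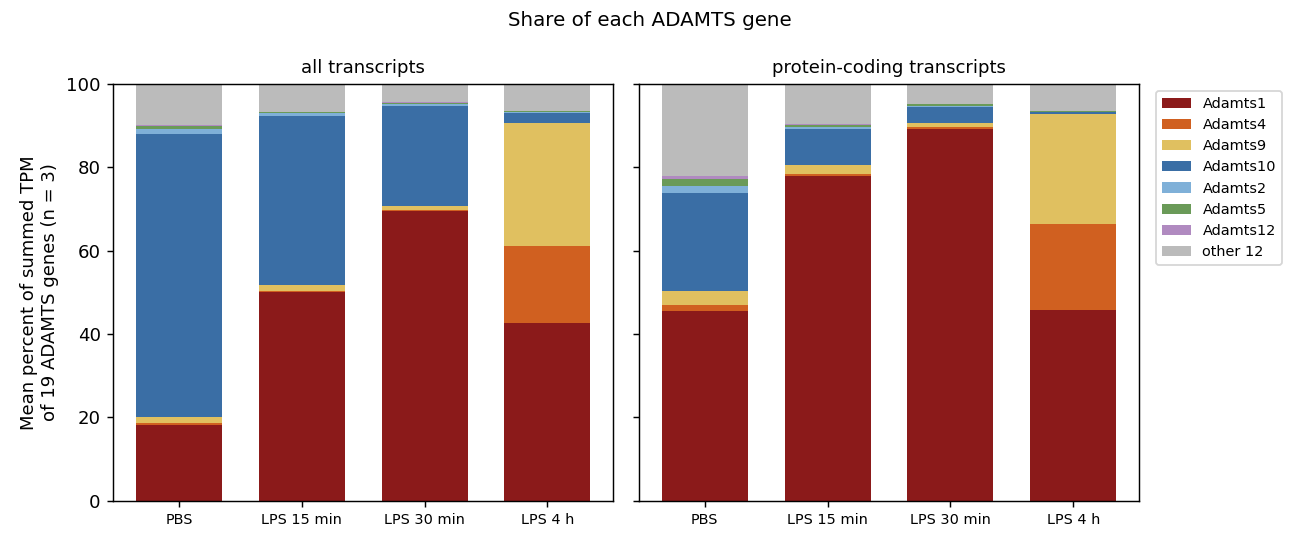
Mean share of each ADAMTS gene in the summed TPM of 19 ADAMTS genes in the 4 groups (n = 3 libraries each), over all transcripts on the left and over protein-coding transcripts on the right. *Adamts10* fills 67.8% of the PBS bar on the left but 23.4% on the right, and *Adamts1*, *Adamts9*, and *Adamts4* fill most of the 4 h bar in both.

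In PBS the difference between the 2 panels came mostly from *Adamts10*, which had 136 TPM over all transcripts and 18.2 over protein-coding ones. Protein-coding transcripts of *Adamts10* held 13.4% ± 2.75 (SD, n = 3) of its TPM in PBS and 13.2% ± 4.17 at 4 h. Transcripts annotated as retained introns held 55.0% ± 2.85 in PBS and 62.8% ± 9.22 at 4 h. For *Adamts1* retained introns held 0.971%, 5.12%, and 4.36% of the TPM in the PBS libraries, 6.61%, 7.96%, and 7.77% at 15 min, 5.10%, 4.16%, and 3.95% at 30 min, and 3.66%, 2.58%, and 4.03% at 4 h. The 15 min libraries lay above all others. For *Adamts9* the share was 7.002% ± 3.33 in PBS and 18.0% ± 0.31 at 4 h, where all 3 libraries lay above all PBS libraries. As a mean share of fragments, retained introns of *Adamts1* held 0.376% in PBS and 0.826% at 15 min. Those of *Adamts9* held 3.28% in PBS and 11.6% at 4 h, and those of *Adamts10* 44.7% and 51.7%. These shares are estimates from short reads and were not tested.

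**Figure D4:**
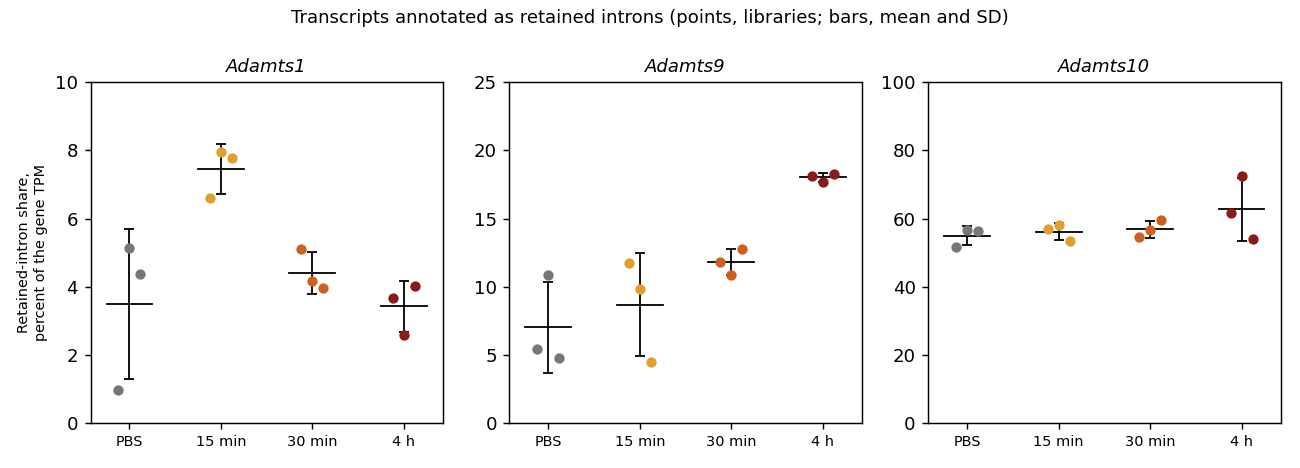
Share of transcripts annotated as retained introns in the TPM of *Adamts1*, *Adamts9*, and *Adamts10*, with libraries as points and the mean and SD as bars, on a linear axis whose range differs between panels. The share of *Adamts1* is highest at 15 min, with a mean of 7.45%, and that of *Adamts9* at 4 h, with a mean of 18.0%.

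The genes with the most similar profiles were found by the root mean square difference of the 3 log2 fold changes against PBS, which share their PBS libraries, over 14581 genes. For *Adamts1* these were *Dusp5* (0.26), *AC167363.2* (0.29), and *Ier3* (0.48). For *Adamts4* they were *Ccl5* (0.34), *Ifi205* (0.41), and *Cxcl11* (0.48), and for *Adamts9* *Il1r2* (0.14), *Zbp1* (0.28), and *Upp1* (0.30). *Vcan* was nearest to *Samd9l* (0.019), *Dcp2* (0.027), and *Parp10* (0.053). *Adamts10* was nearest to *Gm16046* (0.059), *Hip1* (0.077), and *Fmo5* (0.078), and *Adamts12* to *Cx3cr1* (0.17), *2810410L24Rik* (0.20), and *Alox12* (0.22).

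The rest of the pathway was described with lists of genes. Of 12 other ADAMTS proteases 11 were tested, and 4 were called higher by edgeR at 4 h, against 19.1% of all genes, with a median log2 fold change of 0.33 against -0.01 over all genes tested. The count was 1 higher and 1 lower with library size alone, where 10.02% of all genes were called higher and 44.9% lower. *Adamts8*, a protease with antiangiogenic activity in culture, rose from 8.57 ± 1.10 CPM (SD, n = 3) to 130 ± 2.08, by 3.93 on the log2 scale (edgeR adjusted p = 7.45e-21). *Adamts6* rose by 1.09 and *Adamts20* by 0.93, which became 0.39 and 0.22, not called, with library size alone. *Adamts20* was also called at 30 min (0.99), and *Adamts15* was called lower at 15 min (-0.86), which was lost in 11 alternatives. Of 7 ADAMTS-like proteins, which lack the protease domain, 2 were called lower at 4 h, against 13.9% of all genes, *Adamtsl2* at -2.99 and *Adamtsl5* at -1.05.

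Among 13 inhibitors, activators, and cofactors, 6 were called higher by edgeR at 4 h, against 19.1% of all genes, and the median log2 fold change was 0.14. *Timp1*, a tissue inhibitor of metalloproteinases, rose from 1.22 ± 0.40 CPM (SD, n = 3) to 79.1 ± 1.74, by 5.996 on the log2 scale. *Timp3*, the member of that family that inhibits ADAMTS4 and ADAMTS5, rose from 1125 ± 24.2 to 2592 ± 40.9 CPM, by 1.204 (edgeR adjusted p = 1.59e-19), but by 0.50, not called, with library size alone. It was already called at 30 min, by 0.89, as was *Sdc4*, by 0.81, while *A2m* was called lower at 15 min, at -0.76, which was lost in 7 alternatives. *Sdc4*, a heparan sulfate proteoglycan that binds ADAMTS enzymes, rose by 3.74, and *A2m*, a broad protease trap, by 3.72. *Furin*, which removes the propeptide of ADAMTS zymogens, rose by 0.86 and *Fn1* by 0.81, which were 0.15 and 0.10 with library size alone. The 7 not called, *Timp2*, *Timp4*, *Pcsk6*, *Lrp1*, *Fbln1*, *Pofut2*, and *B3glct*, lay between -0.41 and 0.14.

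Of 16 genes for other lecticans and hyaluronan, 5 were called higher and 6 lower at 4 h, against 19.1% and 13.9% of all genes. *Cd44*, the hyaluronan receptor, rose by 3.85, *Tnfaip6*, which transfers heavy chains to hyaluronan, by 3.46, and *Cemip2*, a membrane protein of hyaluronan turnover, by 3.30. *Hyal2* fell by 2.54 on the log2 scale, *Hapln1*, the link protein that ties versican to hyaluronan, by 2.22, and *Hyal1* by 2.10. The call of *Hapln1* was lost in 3 alternatives, and its 4 h libraries held only 10, 17, and 4 fragments. Of 13 genes for chondroitin sulfate synthesis 12 were tested, and 2 were called higher and 3 lower at 4 h, against 19.1% and 13.9% of all genes. *Chst15* rose by 0.81, which was 0.11, not called, with library size alone. The lower ones were *Chst12* at -2.26, *Xylt2* at -1.09, and *Csgalnact1* at -0.96, the last lost in 3 alternatives. With library size alone 6 of these 12 were called, each of them lower. The 12 lay between -0.46 and 0.93 at 15 min and between -0.45 and 0.57 at 30 min, where they were not called.

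Of 20 substrates and versican partners 7 were called higher and 5 lower at 4 h, against 19.1% and 13.9% of all genes, with a median of -0.18. *Selp*, which encodes P-selectin, a ligand of versican glycosaminoglycans, rose by 10.71, *Tfpi2*, a matrix-bound protease inhibitor that ADAMTS1 can cut, by 5.95, and *Tlr2*, a receptor for versican, by 5.89. *Col1a1*, a procollagen substrate of ADAMTS2, was called lower at each time, at -0.94, -0.76, and -1.92, and the call at 30 min was lost in 4 alternatives (both limma settings, without PBS replicate 3, and without LPS 30 min replicate 2). At 15 min 4 of the 20 were called, each lower, against 0.898% of all genes, with *Selp* at -1.99. At 30 min 3 were called higher, *Selp* (4.27), *Tlr2* (1.45), and *Thbs1* (0.95), and 2 lower, against 3.80% and 0.815% of all genes. *Selp* had 0.672 ± 0.25 CPM (SD, n = 3) in PBS, and its call at 15 min was lost in 6 alternatives. *Comp*, which ADAMTS12 can cut, was at -1.65 at 4 h and *Col3a1* at -0.88. The call of *Comp* was lost in 3 alternatives, and its 4 h libraries held only 18, 10, and 15 fragments.

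**Figure D5:**
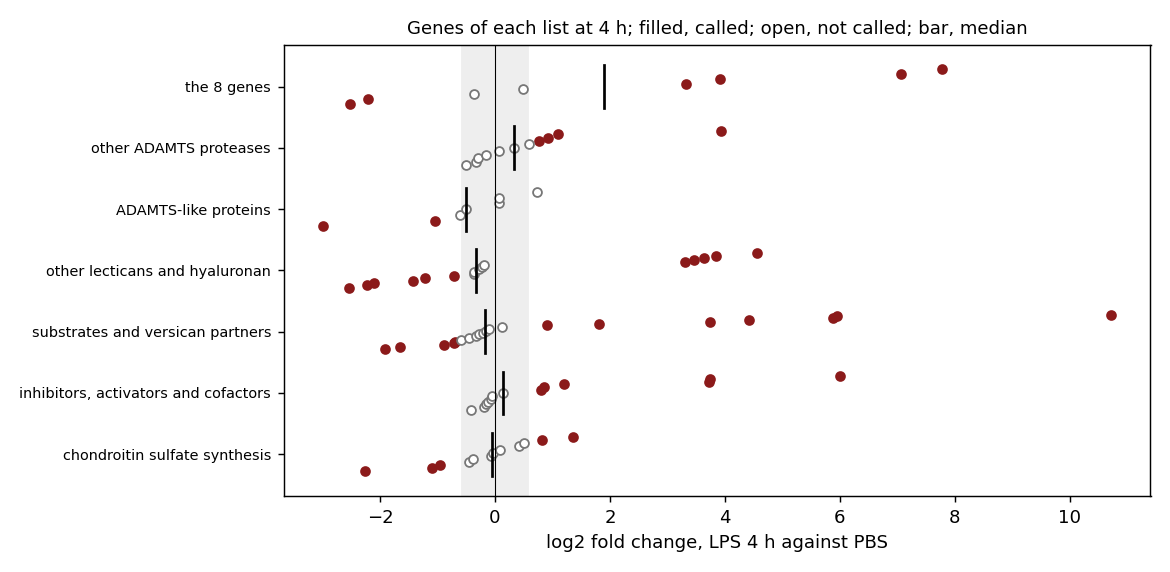
Log2 fold change at 4 h against PBS for each tested gene of the 7 lists, with filled points for called genes, open points for the others, a bar at the median of each list, and a grey band from -0.58 to 0.58. The median of the 8 genes is 1.90, in the gap between *Adamts5* at 0.48 and *Vcan* at 3.32, and that of all other lists lies between -0.51 and 0.33. The 8 genes and the lists were chosen with earlier results of these data known.

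Summed markers of several cell types differed between groups as well. Of all genes tested, 3.35% were called higher and 0.898% lower at 15 min, and 19.1% higher and 13.9% lower at 4 h. The summed level of 8 endothelial markers went from 10185 to 10483 CPM in PBS down to 7494 to 7524 at 4 h, with 5 called lower and 1 higher. That of 6 astrocyte markers went from 717 to 739 up to 1373 to 1431, with 3 called higher. Among these, *Gja1* went from 1956 to 2223 fragments per library in PBS up to 6924 to 7794 at 4 h. Before scaling, *Gfap*, *Aldh1l1*, *Slc1a2*, and *Slc1a3* held fewer fragments at 4 h than in PBS. At 15 min smooth muscle markers stood at 1591 to 1616 CPM against 2473 to 2519 in PBS, with 3 of 6 called lower, and neuron markers at 543 to 561 against 393 to 406, with 2 of 6 called higher. The summed level of 6 neutrophil markers, of which 1 was at 0 in PBS, went from 2.25 to 2.71 CPM in PBS up to 183 to 190 at 4 h, with 5 of 5 tested called higher, and that of 6 monocyte markers from 40.8 to 49.1 up to 163 to 169, with 5 of 6 called higher. Microglial markers, which include *Cx3cr1*, went from 103 to 110 CPM down to 64.5 to 69.3, with 3 of 6 called lower, and perivascular fibroblast markers from 441 to 465 down to 304 to 316, with 3 of 7 called lower. Pericyte markers moved less, from 3834 to 3906 down to 3536 to 3655, with 2 of 8 called lower. Oligodendrocyte markers went from 397 to 412 up to 476 to 488, though 3 of 6 were called lower. Those of oligodendrocyte precursors went from 101 to 103 down to 75.9 to 82.9, with 1 of 6 called lower. Choroid plexus markers went from 10419 to 10850 up to 17421 to 18312, with 2 of 6 called higher. The mean TMM factor was 1.17 in PBS and 0.717 at 4 h, and a lower factor raises the CPM. The 4 h rises of the astrocyte and choroid plexus sums thus depend in part on this scaling. That of the oligodendrocyte sum depends on it wholly, and without it the sum would lie below PBS. Each of its 6 markers held fewer fragments at 4 h, as *Mbp* with 4670 to 5478 per library in PBS and 3584 to 3889 at 4 h. Without the scaling the 4 h falls, that of the pericyte sum among them, would be larger. *Ttr*, a choroid plexus marker, held 266804 to 292961 fragments per library in PBS and 225155 to 252501 at 4 h. The part of these cell types in the values of the 8 genes was not tested, and fewer cells of a type cannot be told apart from less RNA per cell.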

How the data were processed

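The authors ran Salmon 1.2.1 and DESeq2 on GRCm38.p6. The deposited estimated counts are fragments assigned to transcripts, not normalized; the authors scaled the TPM for length and to a constant sum; the deposited gene table holds a normalized signal, scaled by DESeq2 and transcript length. Here transcripts were joined to GENCODE M21 (139852 of 140948; 0.482% to 0.850% of fragments unjoined), and counts were summed by gene and rounded. All 12 libraries entered 1 quasi-likelihood fit in edgeR 4.0.16 (R 4.3.3, TMM, filterByExpr with minimum count 10, glmTreat at 0.58), with Benjamini-Hochberg adjustment over 19150 genes. The SE is the fold change over the root of the quasi-likelihood F. On simulated data 93% to 97% of 4-fold and 60% to 64% of 2-fold changes were called. Same-numbered libraries correlated at -0.049 to 0.070 in 18 pairs, and the numbers were not used as a pairing. With 3 libraries per group this cannot exclude a weak shared effect. The spread between pools was small, with a common biological coefficient of variation of 0.052. Exact permutation tests compared Vcan shares. Named genes were the 8, up to 3 rises and 3 falls per list and time (mean count at least 50), listed inhibitors and activators, and 3 nearest profiles. Members and lists were chosen with earlier results of these data known. Alternatives were DESeq2 1.42.0, RLE factors, library size only, no filter, tests against no change, a length offset, fewer groups, a replicate block, limma 3.58.1, each library left out, and, added after seeing the data, protein-coding transcripts only. P-values measure the spread between pools.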

Additional observations from a re-analysis of the deposited data

Results flagged for a closer look

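A comparison between LPS times tests whether the response of a gene differed between them, and 7 such differences among the 8 genes passed the test. Of all genes tested, 4.76% were called from 15 to 30 min and 28.9% from 30 min to 4 h. *Adamts1* was higher at 30 min than at 15 min by 1.33 on the log2 scale and at 4 h than at 30 min by 0.71. From 30 min to 4 h *Adamts4* differed by 7.67, *Adamts9* by 6.55, *Vcan* by 3.50, *Adamts10* by -1.95, and *Adamts2* by -0.81. The call of *Adamts2* was lost in 12 alternatives, and the later step of *Adamts1* was 0.17, not called, with library size alone. The causes were not tested.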

How the results depend on the processing

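The 4 h count of 6 genes called against PBS stayed within 6 to 8 under every alternative and at 6 with each library left out. Counts above 6 came from the test against no change and from library size only. In these 68.5% and 54.95% of all genes were called at 4 h, against 33.0% in the main fit. The other counts moved with the test. At 15 min 6 genes were called in a test against no change and 4 when a fold limit was added, rather than 1, where 38.6% and 11.9% of all genes were called. At 30 min 5 were called against no change (36.9% of all genes), and 1 rather than 2 with DESeq2, the length offset, or limma with 1 or 10 added. Leaving out libraries gave 1 to 2. Between 15 and 30 min 4 were called against no change and 3 with the limit (37.4% and 12.1% of all genes), rather than 1. With library size only, *Adamts4* at 30 min was -0.058, *Adamts5* at 4 h -0.22, and, from 15 to 30 min, *Adamts9* -0.088 and *Adamts10* -0.12. *Adamts4* at 30 min ranged from -0.11 to 0.52 with libraries left out, and was -0.11 without LPS 30 min replicate 1, -0.10 without PBS replicate 1, and -0.0088 without PBS replicate 3. With protein-coding transcripts only, *Adamts2* at 30 min was -0.14, and *Adamts9* and *Adamts10* from 15 to 30 min were -0.022 and -0.15. The V0 share minus PBS, in percentage points, was 15.9, 15.6, and -8.94, but -5.16, -2.42, and -19.5 by counts, and ranged from 6.12 to 30.1, 5.66 to 29.8, and -18.7 to 5.23 with libraries left out. The replicate block changed 1 call, *Adamts2* from 30 min to 4 h (-0.81, adjusted p = 0.0554). The causes were not tested. Low counts limit *Adamts12* at 4 h and the versican forms in PBS.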
